A study of Homo sapiens with 4 samples.

Results

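The alpha-arrestins ARRDC1, ARRDC2, ARRDC3, ARRDC4 and TXNIP were followed in OMM2.3 cells, a human uveal melanoma line, after 24 h with meclofenamic acid (MA), and after the same time with DMSO in control cells (NC). These 5 genes, of 14416 in the deposited expression table, were chosen by family membership, and the family itself was chosen on the measured input difference of ARRDC3. Meclofenamic acid, an anti-inflammatory inhibitor of cyclooxygenases, also blocks FTO, an enzyme that removes N6-methyladenosine (m6A) from RNA. Both groups were OMM2.3 cells labelled wild type, and they differed in the agent alone as far as the labels say. Each condition had 1 input library, which gives transcript levels, and 1 m6A immunoprecipitation (RIP) library, which with its input gave the authors' list of m6A peaks. With 1 library per group there was no test between conditions, no SD and no replicate check, so all differences describe these 4 libraries.

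Alpha-arrestins are adaptor proteins with an arrestin fold. Most carry proline-rich PPxY motifs that recruit ubiquitin ligases of the NEDD4 family to membrane proteins, which are then ubiquitinated and internalised or sorted. TXNIP also binds thioredoxin and lowers glucose uptake. m6A is written on mRNA as it is made, mostly around stop codons and in 3' UTRs, and it influences the stability and translation of the transcript.

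Transcript levels were the authors' deposited FPKM values (fragments per kilobase of gene, scaled to library size). The whole reads behind them could be recovered from the steps between values, with totals of 41630895 in the MA input and 37041597 in the NC input. The intervals below come from these reads, the smallest numbers that fit, at 95% confidence, and they cover counting error only. The melanocyte markers MITF, PMEL, MLANA, TYR, TYRP1, DCT and SOX10 were present in both inputs, and the lowest of the 7, MITF, was at 34.8 FPKM in MA and 55.9 FPKM in NC. All 7 were lower in MA, 4 of them by 2-fold or more with 1 added to each FPKM value, against 2.98% of all genes, and their median log2 difference was -1.33. PMEL was at 1251 FPKM in MA and 4027 FPKM in NC. Of 13 markers of fibroblasts, immune cells, endothelium and epithelium, 1 reached 1 FPKM, the fibroblast gene LUM at 12.0 FPKM in MA and 4.96 FPKM in NC. The part of LUM-expressing cells and of the lower melanocyte markers in the results was not tested.

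ARRDC3 and TXNIP were far higher with MA, ARRDC4 was higher at a very low level, ARRDC1 was nearly level and ARRDC2 was lower. The sum of the 5 transcripts was 101 FPKM in MA and 22.8 FPKM in NC. Without ARRDC3 it was 59.1 FPKM in MA and 22.2 FPKM in NC, and TXNIP was the largest of the other 4 in MA. ARRDC3 made up 41.3% of the summed FPKM of the family in MA and 2.45% in NC. TXNIP made up 47.7% in MA and 36.3% in NC, and ARRDC2 5.99% in MA and 39.5% in NC. In RNA from whole cultures, more transcript per cell and more cells holding the transcript cannot be told apart.

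**Figure D1:**
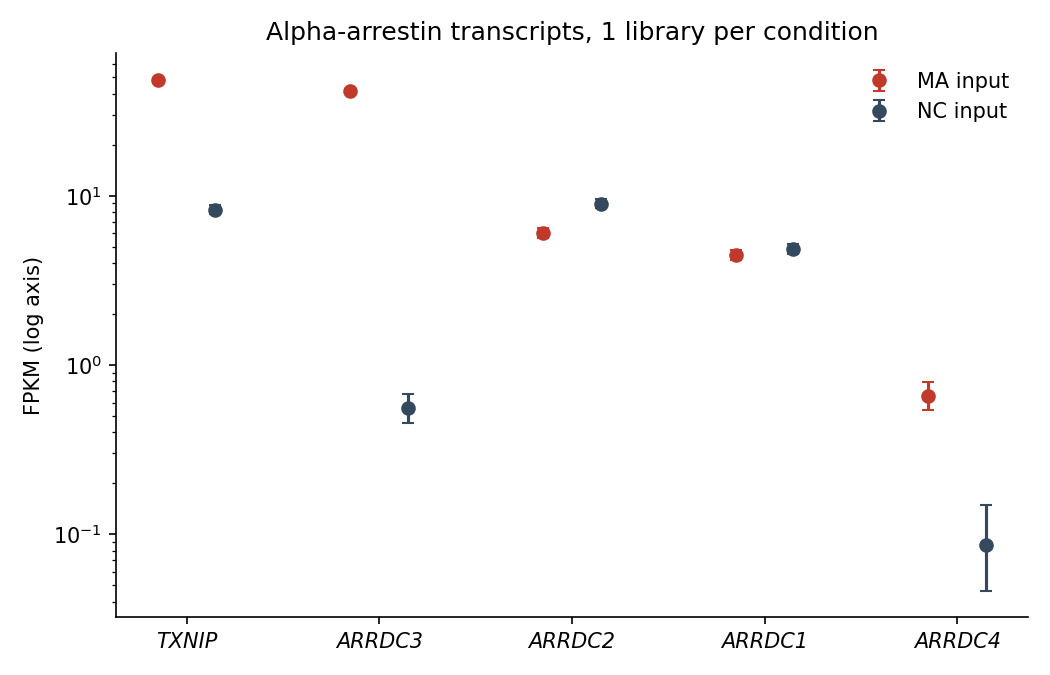
Input level of each alpha-arrestin in FPKM on a log axis, with MA in red and NC in dark blue and 1 library per point. Bars are exact 95% Poisson counting intervals. ARRDC3 stood at 41.5 in MA against 0.558 in NC, while ARRDC1 and ARRDC2 differed by less than 2-fold.

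ARRDC3, an adaptor for the integrin ITGB4 among other membrane proteins, was at 41.5 FPKM in the MA input (interval 40.7 to 42.4) and 0.558 FPKM in the NC input (0.454 to 0.678). These values rested on at least 8453 reads in MA and 101 in NC. The ratio was 74.5, a log2 ratio of 6.22 (5.94 to 6.52). By level it was at or above 89.5% of the genes of the table in MA and 26.4% in NC. The antisense gene ARRDC3-AS1 overlaps ARRDC3 by 2971 bp, and its part in these reads was not tested. TXNIP was at 48.0 FPKM in MA (46.8 to 49.2) and 8.27 FPKM in NC (7.76 to 8.81), from at least 6336 reads in MA and 972 in NC. Its ratio was 5.80 and its log2 ratio 2.54 (2.44 to 2.63). In both genes the MA interval lay wholly above the NC interval.

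ARRDC4, the paralog most often studied beside TXNIP for its effect on glucose uptake, was at 0.656 FPKM in MA (0.540 to 0.790) and 0.0864 FPKM in NC (0.0460 to 0.148). The NC value rested on at least 13 reads and the MA value on 111. Its log2 ratio of 2.93 therefore had a wide interval, 2.09 to 3.88, which held that of TXNIP and lay below that of ARRDC3. ARRDC2 was at 6.03 FPKM in MA (5.61 to 6.48) and 8.99 FPKM in NC (8.44 to 9.57), a log2 ratio of -0.58 (-0.72 to -0.44). ARRDC1, the member that binds the ESCRT protein TSG101 and drives vesicle budding at the plasma membrane, was at 4.45 FPKM in MA (4.15 to 4.78) and 4.85 FPKM in NC (4.51 to 5.20). Its log2 ratio of -0.12 had an interval of -0.27 to 0.02, so no difference in ARRDC1 beyond counting error was detected on the deposited FPKM scale. The interval does not cover the choice of scale between the libraries.

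The order of the family differed between the inputs. In MA it was TXNIP, ARRDC3, ARRDC2, ARRDC1 and ARRDC4, and no neighbouring intervals overlapped. In NC it was ARRDC2, TXNIP, ARRDC1, ARRDC3 and ARRDC4, and the intervals of ARRDC2 and TXNIP overlapped. ARRDC3 was thus next to the top in MA and next to the bottom in NC.

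Because a ratio between 2 members within a library does not depend on the library total, the members were also set against each other. The ratio of MA to NC was 12.8 times that of TXNIP for ARRDC3 (interval 10.4 to 15.8). It was 9.80 times that of ARRDC4 (5.34 to 18.0), 81.0 times that of ARRDC1 (65.0 to 101) and 111 times that of ARRDC2 (89.3 to 138). For TXNIP the same quantity was 6.31 against ARRDC1 (5.60 to 7.12), 8.65 against ARRDC2 (7.69 to 9.72) and 0.763 against ARRDC4 (0.428 to 1.36). Of these 7 pairs, TXNIP and ARRDC4 was the pair whose interval included 1. An interval that includes 1 does not show that the pair moved alike. Since ARRDC3 was chosen on this difference, its values are a description.

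For comparison with all genes, differences were taken as log2((MA FPKM + 1)/(NC FPKM + 1)) over the 10564 genes that reached 1 FPKM in either input. The pseudocount understates the difference of low genes. ARRDC4 was below 1 FPKM in both inputs and did not enter, and 4 of the 5 members did. ARRDC3, at 4.77, had the highest difference of all these genes, and TXNIP, at 2.40, ranked 23. Those of ARRDC1 and ARRDC2 were -0.10 and -0.51. So 2 of the 4 were higher by 2-fold or more, against 10.3% of all genes, and 0 were lower by as much, against 2.98% of all genes. These counts hold ARRDC3, on which the family was chosen, so nothing is read from them. Without it, 1 of 3 members was higher by 2-fold, with a median of -0.10, beside 0.11 for all genes. Over all genes 1087 were higher and 315 lower by 2-fold. With 0.11 subtracted from each gene, these counts were 756 and 439.

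**Figure D2:**
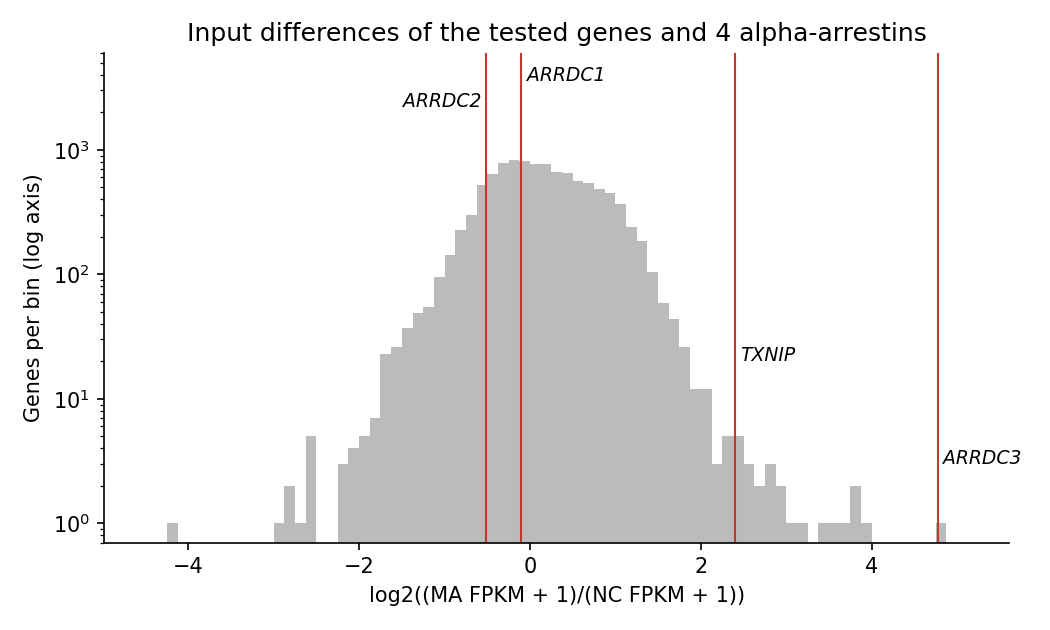
Histogram of the log2 difference of MA minus NC, each FPKM value raised by 1, over 10564 genes, with counts on a log axis. Lines mark the 4 alpha-arrestins that entered: ARRDC3 at 4.77 beyond every other gene, TXNIP at 2.40 in the sparse upper tail, ARRDC1 at -0.10 and ARRDC2 at -0.51 within the bulk.

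The genes closest to ARRDC3 in both levels were found by the Euclidean distance in log2(FPKM + 1) over the 2 inputs. ID1, an inhibitor of bHLH transcription factors, was nearest at a distance of 0.58, with 33.1 FPKM in MA and 1.18 FPKM in NC. KLF4 followed at 1.14, with 18.8 FPKM in MA and 0.898 in NC, and then the chaperone CLGN at 1.50, KLF2 at 1.51 and ID3 at 1.62. The genes nearest to TXNIP lay closer. The first was the clock repressor NR1D1, at 0.05, with 48.1 FPKM in MA and 8.58 FPKM in NC. GFPT1, the first enzyme of hexosamine synthesis, was at 0.23, with 45.4 FPKM in MA and 9.80 in NC. LCP1 (0.29), P4HA1 (0.42) and the cystine transporter subunit SLC7A11 (0.42) came next. A distance over 2 libraries is a measure of like levels only.

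The promoters of the 3 members that were higher in MA are shown because these genes shared a direction. Each run is the 250 bases before the RefSeq transcription start on GRCh38.p14, in the direction of transcription, and capitals mark matches on either strand to 3 motifs. The core of the NF-Y site is CCAAT, an E-box that MondoA and MLX among other factors can bind is CACGTG, and a core shared by forkhead sites is GTAAACA. For the second listed start of ARRDC3 only a window of 29 bases around its match is printed.
ARRDC3, first start, chr5:91383318-91383567, minus strand: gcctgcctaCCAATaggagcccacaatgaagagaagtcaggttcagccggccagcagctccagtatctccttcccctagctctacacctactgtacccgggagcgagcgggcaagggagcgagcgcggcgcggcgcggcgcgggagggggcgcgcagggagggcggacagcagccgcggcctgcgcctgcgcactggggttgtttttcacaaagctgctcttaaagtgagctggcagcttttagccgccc
ARRDC3, second start, chr5:91380109-91380137, minus strand: agcccggcactTGTTTACcacggcgcggc
TXNIP, chr1:145996580-145996829, minus strand: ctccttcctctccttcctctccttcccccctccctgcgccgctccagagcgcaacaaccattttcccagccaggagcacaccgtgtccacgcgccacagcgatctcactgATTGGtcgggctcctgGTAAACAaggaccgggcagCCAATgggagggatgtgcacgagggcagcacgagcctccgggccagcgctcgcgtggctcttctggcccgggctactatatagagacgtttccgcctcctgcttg
ARRDC4, chr15:97960453-97960702, plus strand: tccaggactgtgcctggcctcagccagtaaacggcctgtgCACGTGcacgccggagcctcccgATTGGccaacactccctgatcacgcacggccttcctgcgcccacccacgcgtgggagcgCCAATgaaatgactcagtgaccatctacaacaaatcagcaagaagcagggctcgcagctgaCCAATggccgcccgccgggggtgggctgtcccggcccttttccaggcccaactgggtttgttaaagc

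All 5 members had RefSeq promoters, with 2 starts each for ARRDC2, ARRDC3 and TXNIP, and motifs were counted over windows of 300 bases that also hold 50 bases after the start. GTAAACA was found at 1 start of ARRDC3, at -29, and at 1 start of TXNIP, at -124, and at no start of ARRDC1, ARRDC2 and ARRDC4, against 3.42% of 35116 promoters. Positions give the first base of a match relative to the start. CACGTG was found in ARRDC4, at -210, and in no other member, against 7.26% of promoters. CCAAT occurred 3 times in ARRDC4, 2 times at the first start of TXNIP and 1 time each at the first start of ARRDC3, in ARRDC1 and at the second start of ARRDC2, against 34.6% of promoters. The CRE palindrome TGACGTCA, held by 1.85% of promoters, was in none of these windows, and neither was a pair of CACGTG motifs 5 bases apart, which 2 promoters in all held. The search took exact matches only. It could not find sequences that differ from CACGTG by a base, such as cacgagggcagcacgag in the TXNIP run. CCAAT thus occurred in every member, also in those that were not higher in MA. Such matches describe the letters of the windows and are not evidence of binding.

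The m6A peaks of the family lay in 3 genes, all in 3' UTRs by the authors' annotation. The deposited MA list held 2 peaks, 1 in ARRDC2 and 1 in ARRDC3, and the deposited NC list held 4, with 1 in ARRDC2, 2 in ARRDC3 and 1 in TXNIP. Thus 2 of 5 members had a peak in MA and 3 of 5 in NC, where 62.3% of all table genes had one in MA and 65.3% in NC. Both MA peaks and all 4 NC peaks were annotated to the 3' UTR, against 42.8% of all MA peaks and 42.1% of all NC peaks. Fold enrichments, false discovery rates and exonic lengths of peaks below are the authors' deposited values, each set within its own list. Peak positions are on GRCh38.p13, counted from 1.

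In ARRDC3 the MA list gave 1 long peak and the NC list 2 short ones within the same span. The MA peak ran over chromosome 5, 91370476 to 91373701, on the minus strand, and had an exonic length of 999 bp, as its span of 3226 bp takes in intron sequence. Its deposited fold enrichment was 3.83 with a false discovery rate of 1.58e-08, and 67.0% of MA peaks had a fold that high or lower. One NC peak ran from 91370526 to 91370676, 151 bp with a fold of 5.00, and the other from 91371075 to 91371374, 300 bp with a fold of 7.00. Their false discovery rates were 4.90e-05 and 3.16e-05. They were 398 bp apart, both within 1 exon, and both lay wholly inside the span of the MA peak, in the part nearer the 3' end. By exonic length the MA peak was at or above 93.2% of its list, and the NC peaks were at or above 20.3% and 54.7% of theirs. The input of ARRDC3 held at least 8453 reads in MA and 101 in NC, and the part of this depth in the number and length of the peaks was not tested.

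ARRDC2 had nearly the same peak in both lists. In MA it ran over chromosome 19, 18012971 to 18013905, on the plus strand, 935 bp within 1 exon. In NC it ran from 18012922 to 18013955, 1034 bp, and so held the MA peak with 49 bases to spare at the start and 50 at the end. The deposited fold enrichment was 7.50 in the MA list, at or above 96.2% of its peaks, and 4.83 in the NC list, at or above 69.6% of its peaks. The false discovery rates were 5.62e-09 in MA and 1.86e-09 in NC.

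TXNIP had no peak in the MA list and 1 in the NC list, at chromosome 1, 145993174 to 145993420, on the minus strand, 247 bp. It was a weak peak, with a deposited fold of 2.83, at or above 32.3% of the NC list, and a false discovery rate of 0.00151, which 7.09% of NC peaks matched or exceeded. With the longer NC list cut by p-value to the length of the MA list, this peak dropped out, and TXNIP then had a peak in neither. Of all table genes with a NC peak, 10.6% had no MA peak. Of the 956 such genes that were 2-fold or more higher in the MA input, as TXNIP was, 32 had none, or 3.35%.

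After merging touching peaks, both MA regions of the family overlapped a NC region by at least 1 bp, and 3 of the 4 NC regions overlapped a MA region. Over all genes 79.6% of MA regions and 73.8% of NC regions had such a partner, and 2 and 4 regions are too few to set the family apart from these shares. When the overlap had to cover 50% of both spans, 1 MA region and 1 NC region remained, those of ARRDC2.

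**Figure D3:**
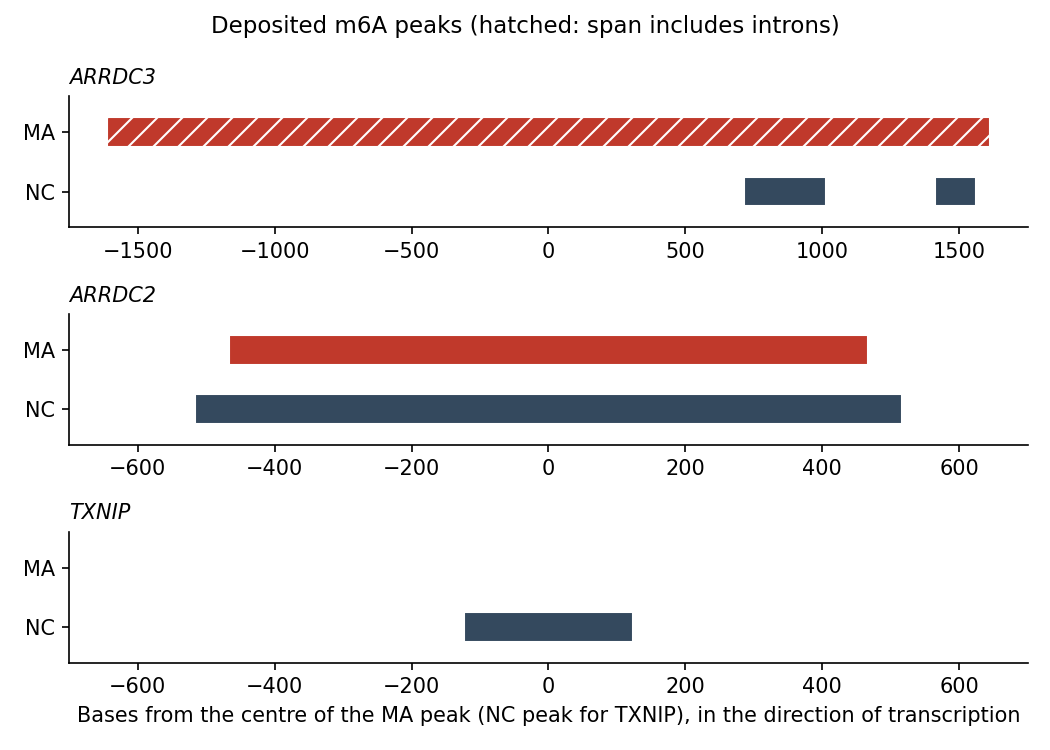
Deposited m6A peaks of ARRDC3, ARRDC2 and TXNIP, MA above NC, by distance in bases from the centre of the MA peak (the NC peak for TXNIP) in the direction of transcription. Bars run from peak start to end. The NC peaks of ARRDC3 (151 and 300 bp) lie inside the MA span of 3226 bp, the ARRDC2 peaks nearly coincide, and TXNIP has a bar in NC alone.

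The share of genes with a peak varied with the input level, so each member was set beside the genes within 2-fold of its own level. ARRDC1 had no peak in either list, although 86.6% of 3620 genes near its level had one in MA and 88.6% of 3648 in NC. For TXNIP, 74.3% of 2104 genes near its level had a peak in MA, where it had none, and 89.0% of 3920 in NC, where it had 1. For ARRDC3 the shares were 75.7% in MA and 63.9% in NC, and it had a peak in both. ARRDC4, also without a peak, lay where 50.6% of genes had one in MA and 13.1% in NC. For ARRDC2, with a peak in each list, the shares were 87.8% in MA and 89.0% in NC. The depth of the RIP libraries is unknown, so a missing peak is one that the authors did not call.

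**Figure D4:**
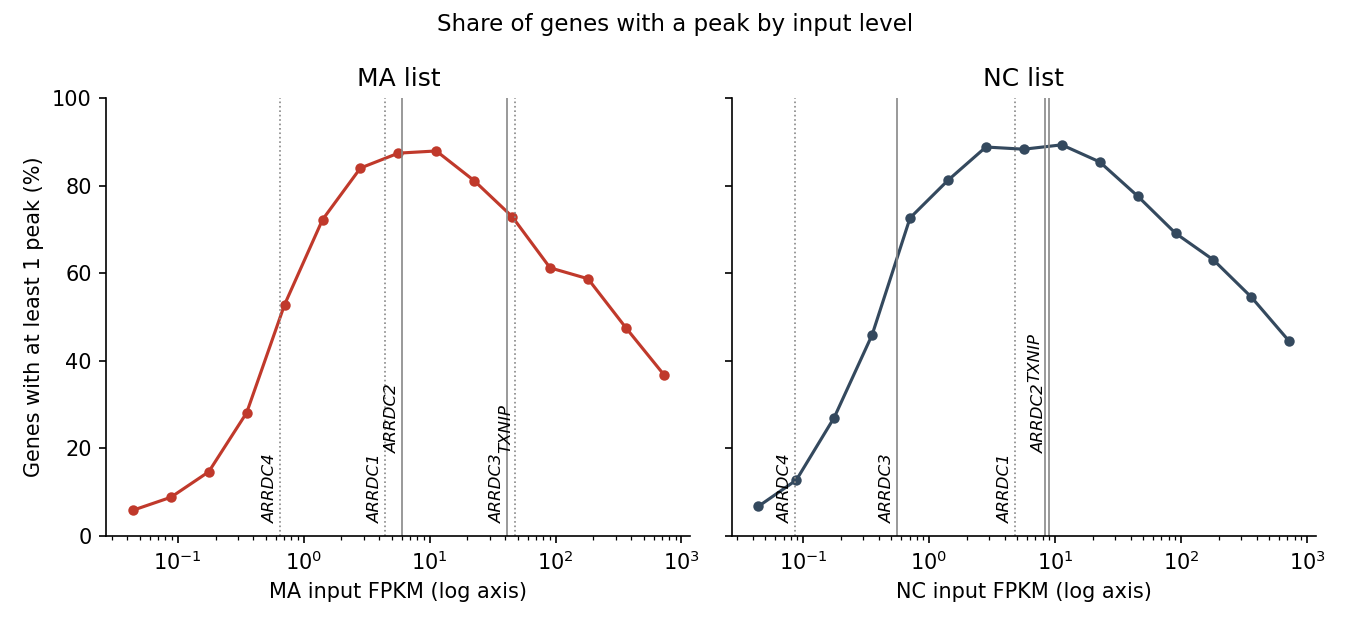
Share of genes with at least 1 deposited peak, by input FPKM in 2-fold bins on a log axis, for the MA list and the NC list. Vertical lines mark the level of each member, solid where it had a peak and dotted where it had none. ARRDC1 stands at the top of both curves without a peak, and TXNIP has none in MA, at 48.0 FPKM.

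Genes that work with the alpha-arrestins were mixed in direction. Counts at 2-fold and differences are again on the log2(FPKM + 1) scale, on which 10.3% of all genes were higher and 2.98% lower by 2-fold. In lists of 5 to 9 genes, 1 gene past 2-fold is too few to set a list apart from these shares. Of 7 expressed NEDD4 family ligases, 2 were higher by 2-fold or more and 0 lower, and their median log2 difference was 0.34 beside 0.11 for all genes. NEDD4 itself was at 8.54 FPKM in MA and 2.30 FPKM in NC (difference 1.53), and ITCH, which binds TXNIP, at 14.0 FPKM in MA and 6.31 FPKM in NC (1.04). NEDD4L, the most abundant per length, was at 41.0 FPKM in MA and 51.1 FPKM in NC (-0.31). In the thioredoxin system, TXN, the partner of TXNIP, was at 117 FPKM in MA and 119 FPKM in NC, a log2 ratio of -0.03 (-0.09 to 0.04). The reductase TXNRD1 was the one of its 5 members past 2-fold, at 139.6 FPKM in MA and 69.0 FPKM in NC (1.01, close to the threshold), and the median was -0.12.

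MLXIP, which encodes MondoA, the glucose-sensing factor known to drive TXNIP and ARRDC4, was at 12.3 FPKM in MA and 28.2 FPKM in NC, a difference of -1.13. Its partner MLX was at 20.5 FPKM in MA and 40.4 FPKM in NC (-0.94). Both transcripts were thus lower where those of TXNIP and ARRDC4 were higher. The part of MondoA and MLX in the levels of TXNIP and ARRDC4 was not tested. FOXO1 (0.49), FOXO3 (0.61) and the glucocorticoid receptor gene NR3C1 (0.92) were higher by less than 2-fold on this scale, and the 5 factors had a median of 0.49. NR3C1 was at 2.74 FPKM in MA and 0.976 FPKM in NC. Its log2 ratio without the added 1 was 1.49 (1.37 to 1.61), past 2-fold.

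Relatives with an arrestin fold outside the family did not share a direction either. ARRB1, a beta-arrestin, was at 6.56 FPKM in MA and 13.03 FPKM in NC (-0.89), and ARRB2 at 19.1 FPKM in MA and 15.4 FPKM in NC (0.30). The retromer subunit VPS26A was the one of 6 past 2-fold, at 11.6 FPKM in MA and 4.26 FPKM in NC (1.26), while VPS26B (-0.68) and VPS26C (-0.50) were lower, and the median was -0.13. None of the 9 ESCRT and budding genes reached 2-fold on the log2(FPKM + 1) scale. VPS37A, at 4.67 FPKM in MA and 2.17 FPKM in NC, was at 0.84 on it and had a log2 ratio without the added 1 of 1.11 (0.99 to 1.23). TSG101 was at 45.9 FPKM in MA and 51.3 FPKM in NC (-0.16), and the median was -0.08.

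Among reported cargo and partners, 1 of 8 expressed genes was past 2-fold. This was the glucose transporter SLC2A1, which TXNIP and ARRDC4 are known to act on, at 27.3 FPKM in MA and 7.54 FPKM in NC (1.73). F2R, a receptor reported as ARRDC3 cargo, was at 14.7 FPKM in MA and 9.56 FPKM in NC (0.57). ITGB4 was under 0.01 FPKM in both inputs. The list had a median of 0.26.

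**Figure D5:**
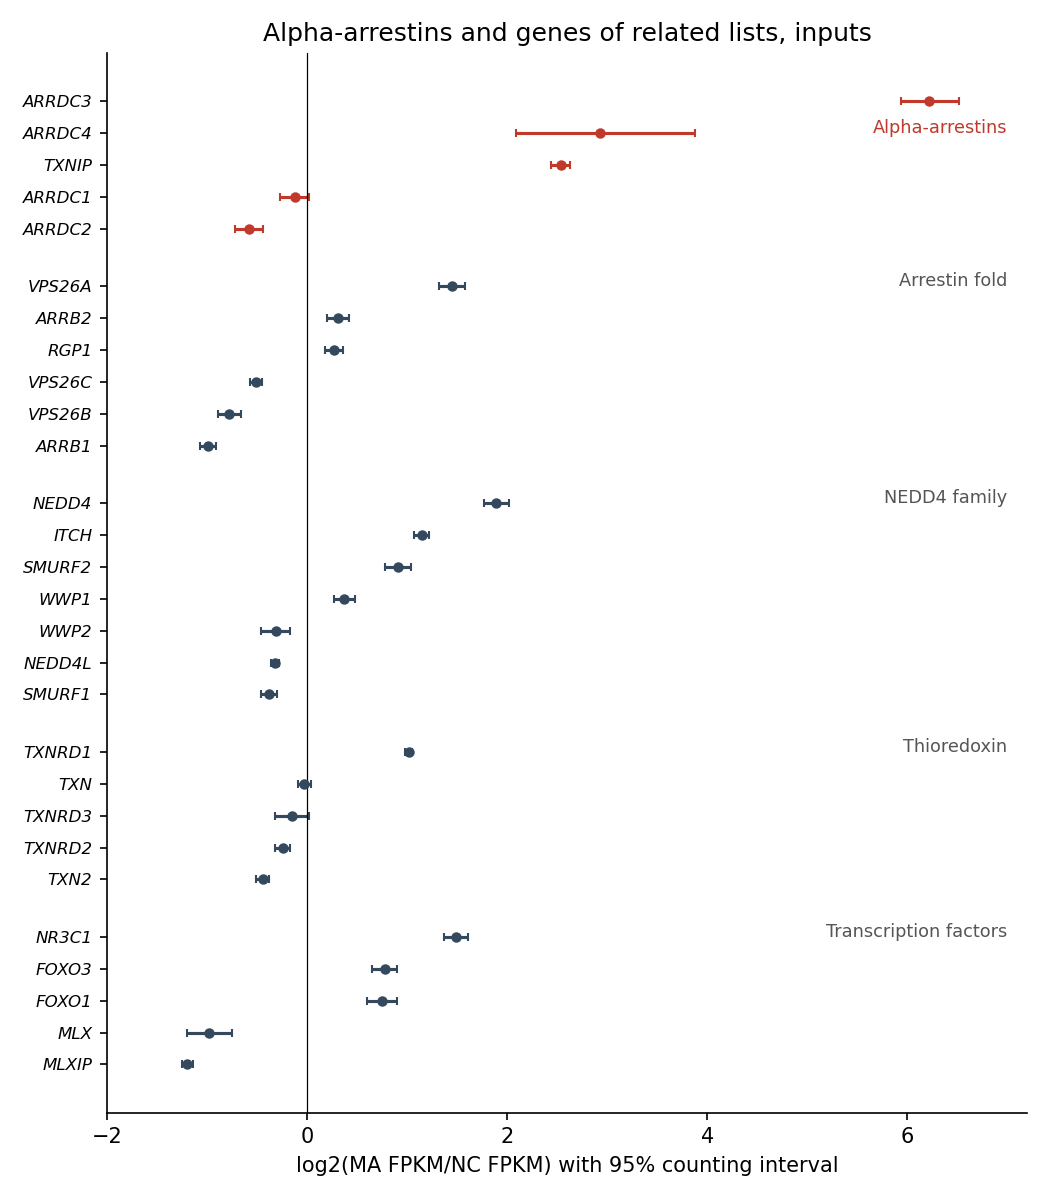
Log2 ratio of MA over NC FPKM for the 5 alpha-arrestins (red) and the expressed genes of 4 related lists (dark blue), with exact 95% binomial counting intervals from the recovered reads, which are wider where the smallest fitting number of reads is below the true one. ARRDC3 at 6.22, ARRDC4 at 2.93 and TXNIP at 2.54 lie to the right of every gene of those lists, of which NEDD4 at 1.89 is the highest.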

How the data were processed

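The authors deposited FPKM values of the input libraries, 1 column each for MA and NC, and 1 m6A peak list for each condition. Per the submitters' processing notes, HISAT, HISAT2, Trimmomatic, ChIPseeker and deepTools were used on GRCh38.p13, with no version or role named. The read counter, its use of strand and the peak caller are not given in these sources. Peak fold enrichments (a ratio of RIP over input), p-values, false discovery rates and exonic widths are deposited values of the authors, per the file headers. Peak starts were raised by 1 to count from 1.

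The commonest ratio of both FPKM values among 1961 low genes gave the relative depth of the inputs. The read number of each gene is the smallest that fits both values and makes the gene length whole. Library totals came from 182 genes whose length equals their RefSeq span, against 38 at the next candidate. Among the 13055 genes with a value above 0 in each input, 63.1% gave whole reads of at most 1000 in NC, and 0.490% did so after the depth ratio was moved by 0.001%. Ratios have exact binomial intervals, levels exact Poisson intervals, and ratios of ratios an interval on the log scale with a normal approximation. PCR copies were not told apart by molecular identifiers, so all of these cover counting error only. RefSeq lists the antisense gene ARRDC1-AS1 over 29 bp of ARRDC1 and ARRDC3-AS1 over 2971 bp of ARRDC3. Without strand, reads of these antisense genes there cannot be told from those of ARRDC1 and ARRDC3. They were not analysed here.

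The 5 members are named in full. Of the 6 related lists every gene past 2-fold is named and any other expressed gene may be, as are the 5 genes nearest to ARRDC3 and to TXNIP. One gene of the cargo list is counted with its list but not reported here. The members, lists and motifs were chosen with earlier results of these data known. Promoters are from RefSeq (GRCh38.p14), matched by symbol. The sequences under the peaks were not analysed here. The recovery of the depth ratio and of the ratio of reads, and the 2-fold counts, were run on simulated data. The steps that set the library totals and the gene lengths were not simulated. Python 3.11.15, numpy 2.4.6, pandas 2.3.3, scipy 1.17.1 and matplotlib 3.10.9 were used.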

Additional observations from a re-analysis of the deposited data

How the results depend on the processing

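Of 58 values recomputed under alternatives, none turned in direction and 24 moved beyond their counting interval or, for counts, by over 1.5 times. With a pseudocount of 0.1, the log2 difference was 5.98 for ARRDC3, 2.52 for TXNIP, 2.02 for ARRDC4 and 0.71 in the median of MondoA and the other factors, and 1801 genes were higher by 2-fold. With a pseudocount of 5 it was 3.07 for ARRDC3, 2.00 for TXNIP, 0.15 for ARRDC4 and -0.34 for ARRDC2, with 273 genes higher and 154 lower. ARRDC3 then ranked 4 and TXNIP 18. TXNIP ranked 39 with a pseudocount of 0.1 and 29 after rescaling to TPM, and ARRDC3 ranked 1 in both. Rescaling to TPM divides each input by its own FPKM sum. The pseudocount then weighs less, and the scale of MA against NC also shifts upward. The log2 difference was then 5.53 for ARRDC3, 2.56 for TXNIP and -0.04 for ARRDC1. It was 1.16 for ARRDC4, which then passed the filter, and 1842 genes were higher. With the median of all genes set to 0, ARRDC3 was at 4.66, TXNIP at 2.29 and ARRDC1 at -0.21. The list medians were then 0.23 for the NEDD4 family, 0.38 for MondoA and the other factors, -0.24 for the thioredoxin system and for the arrestin-fold relatives, -0.19 for ESCRT genes and 0.14 for cargo. An overlap of 50% of both spans left 1 MA region and 1 NC region of the family. Overlap by exonic bases was not run, as the lists give no exon blocks. Stricter peak cutoffs (fold 2, false discovery rate 0.01) left all member peaks. With the NC list cut to the length of the MA list, the TXNIP peak dropped out and the 3 other NC regions were left, all with a partner. No paired analysis was possible because each group had 1 library, and none could be left out in turn. Depth limits ARRDC4 most, with 13 reads in NC.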

Other observations

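In the deposited gene annotation, all 5 members carried the GO term protein transport, as did 297 genes of the table. The 269 of these in the comparison had a median log2 difference of 0.14, beside 0.11 for all genes. ARRDC1 and ARRDC4 were the 2 genes of the table annotated to extracellular vesicle biogenesis, and both lacked a peak in either list. ARRDC3 and ARRDC4 shared early endosome and the positive regulation of ubiquitin-protein transferase activity, a term of 21 genes. TXNIP was the one member with a deposited pathway, NOD-like receptor signaling.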
